A study of Mus musculus with 1600 samples.

Results

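The 8 genes Vegfa, Vegfb, Vegfc, Kdr, Flt1, Flt4, Nrp1 and Nrp2 of the vascular endothelial growth factor (VEGF) system were followed through single glomerular cells of diabetic and control mice. The first 3 are ligands, the next 3 receptor tyrosine kinases and the last pair co-receptors. They were chosen by gene symbol for their place in the pathway, and all 8 were found among the 45792 gene identifiers of the deposited tables. VEGF-A is made by podocytes, the epithelial cells that wrap the glomerular capillaries, and acts across the filtration barrier on the fenestrated endothelium. Its main signalling receptor is the kinase that Kdr encodes, also known as VEGFR2, while the product of Flt1 (VEGFR1) binds VEGF-A and VEGF-B tightly and can act as a decoy. VEGF-C acts mainly through the product of Flt4 (VEGFR3), the receptor best known from lymphatic vessels, and the neuropilins Nrp1 and Nrp2 bind VEGF together with the kinases and bind class III semaphorins on their own.

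The mice were C57BL/6 animals without endothelial nitric oxide synthase (Nos3-/-), a deletion carried by controls and diabetic animals alike. The diabetes group received streptozotocin, which destroys insulin-producing cells, at 50 µg per g a day for 5 days from 8 weeks of age, the control group received citrate, and all were 10 weeks old at cell isolation. In each of 2 experiments the glomeruli of 3 mice of a condition were pooled and single cells were captured in the wells of a microfluidic plate, so that 4 pools (control 1 and 2, diabetes 1 and 2, numbered by experiment) are the units of comparison. With 2 pools a condition, p-values refer to the spread between pools of mice. The fits estimated that spread mostly, and in some classes wholly, over all genes together and not gene by gene.

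Of 1600 wells, 833 were imaged with 1 cell and 639 of these passed the filters on genes and mitochondrial reads, 120 and 203 in the control pools and 128 and 188 in the diabetes pools. The median kept well held 32222 and 219072 reads in the control pools and 43577 and 176715 in the diabetes pools, so the second experiment was several times deeper than the first. Clustering without the 8 genes gave 302 endothelial-like, 127 mesangial-like, 79 immune-like and 74 podocyte-like wells. A further 18 wells were called smooth muscle or renin cell-like and 39 stayed unnamed. Names came from marker lists, and no doublet caller was run on wells imaged with 1 cell. In the endothelial-like class all 14 endothelial markers were detected in every pool, whereas Mmrn1, a marker of lymphatic endothelium, was at 0 in all 4 pools and the summed level of the 4 lymphatic markers measured was at most 1.48 CPM (reads scaled to the same total per pool and class). Diabetes pool 1 held 1 podocyte-like and 10 mesangial-like wells, and control pools 1 and 2 held 5 and 6 immune-like wells.

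A limit on every comparison of the conditions is that the pools differed in sex-linked genes, although the design describes the animals as sex-matched. Over all kept wells Xist, transcribed from the inactive X chromosome, stood at 356 and 442 CPM in the control pools and at 1.42 and 1.40 CPM in the diabetes pools. The Y-linked gene Ddx3y stood at 0 and 0.273 CPM in the control pools and at 91.0 and 95.9 CPM in the diabetes pools. Diabetes and sex-linked expression cannot be told apart in these 4 pools, for any gene below. Nos3 itself, at gene level, had 86.9 and 94.8 CPM in control and 95.1 and 74.9 CPM in diabetes endothelial-like wells. Gene counts do not show whether those reads lie outside the disrupted part, so they check nothing about the deletion.

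The upstream sequences of 3 genes show the DNA in front of the transcripts that the results turn on: Vegfa, with its highest level in podocyte-like wells, and Kdr and Flt1, whose levels ran together over the classes. Shown are the 250 bases before the annotated start, 5′ to 3′ in the direction of the gene, from RefSeq on GRCm38.p6, all on the minus strand. Capitals mark the core GGAA of the ETS transcription factor family, a family known for its role in endothelial genes, or its reverse TTCC.
Vegfa (chr17:46032378-46032627): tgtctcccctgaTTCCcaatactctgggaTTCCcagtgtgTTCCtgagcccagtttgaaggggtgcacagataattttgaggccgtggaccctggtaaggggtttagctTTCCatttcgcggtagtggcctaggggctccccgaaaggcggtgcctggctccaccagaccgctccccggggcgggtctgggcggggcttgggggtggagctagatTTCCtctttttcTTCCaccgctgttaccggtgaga
Kdr (chr5:75978456-75978705): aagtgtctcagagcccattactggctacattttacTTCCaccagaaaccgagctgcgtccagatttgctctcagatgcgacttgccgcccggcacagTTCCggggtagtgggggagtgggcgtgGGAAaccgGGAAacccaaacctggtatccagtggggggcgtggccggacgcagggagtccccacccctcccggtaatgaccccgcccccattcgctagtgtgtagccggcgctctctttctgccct
Flt1 (chr5:147726012-147726261): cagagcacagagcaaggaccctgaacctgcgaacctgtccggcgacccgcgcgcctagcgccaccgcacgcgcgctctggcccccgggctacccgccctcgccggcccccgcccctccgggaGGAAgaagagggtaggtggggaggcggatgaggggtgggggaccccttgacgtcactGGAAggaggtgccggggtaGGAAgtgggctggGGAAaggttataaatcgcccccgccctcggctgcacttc
The ETS core occurred 4 times in the Kdr window and 4 times in the Flt1 window, and 33.4% of all 32851 windows of that length held as many. It occurred 6 times in the Vegfa window, as in 8.69% of windows. All 8 genes had a window, and Nrp1 had 4 cores, Flt4 had 2, and Vegfb, Vegfc and Nrp2 had 1 each. Any match at all is common, since 93.4% of windows held the core. The GC box GGGCGG or its reverse CCGCCC, present in 32.7% of windows, occurred 2 times in the Kdr and Vegfa windows and 3 times in that of Flt1, which alone of the 3 held a TATA box (TATAAA or TTTATA, in 12.4% of windows). The hypoxia response core ACGTG or CACGT, present in 16.6% of windows, was in none of the 3 printed windows and once in a second Vegfa window at an inner start. These short matches are letters in a window and were not tied to any binding in these cells.

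Vegfa (minus strand of chromosome 17, 46016993 to 46032369 on GRCm38, as are all positions here) was the ligand with a clear class: its reads came at the highest level from podocyte-like wells. Its level in podocyte-like wells was 1712 and 1331.5 CPM in control pools 1 and 2 and 1043 CPM in diabetes pool 2, while the single podocyte-like well of diabetes pool 1 gave 1457 CPM from 27 reads. Each of these pools lay far above the same pool's other classes, and the diabetes pool 2 value was the lowest of the 4. In endothelial-like wells Vegfa stood at 193 and 63.2 CPM in the control pools and 159 and 69.7 CPM in the diabetes pools. In that class the first experiment was the higher one in both conditions, and the conditions overlapped. Mesangial-like wells had 66.1, 54.2, 84.6 and 30.6 CPM in the same order, and immune-like wells 7.12, 65.8, 5.05 and 30.4 CPM. As a mean over pools of log2(CPM + 1), the order was podocyte-like at 10.38 ± 0.36 (SD, n = 3 pools with at least 5 wells), endothelial-like at 6.77 ± 0.81, mesangial-like at 5.81 ± 0.61 and immune-like at 4.16 ± 1.64 (n = 4 each). The first step, 3.61 on the log2 scale, exceeded both spreads, and the gap between the endothelial-like and mesangial-like means also exceeded the SD of each, while that between mesangial-like and immune-like wells was about the SD of the latter.

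**Figure D1:**
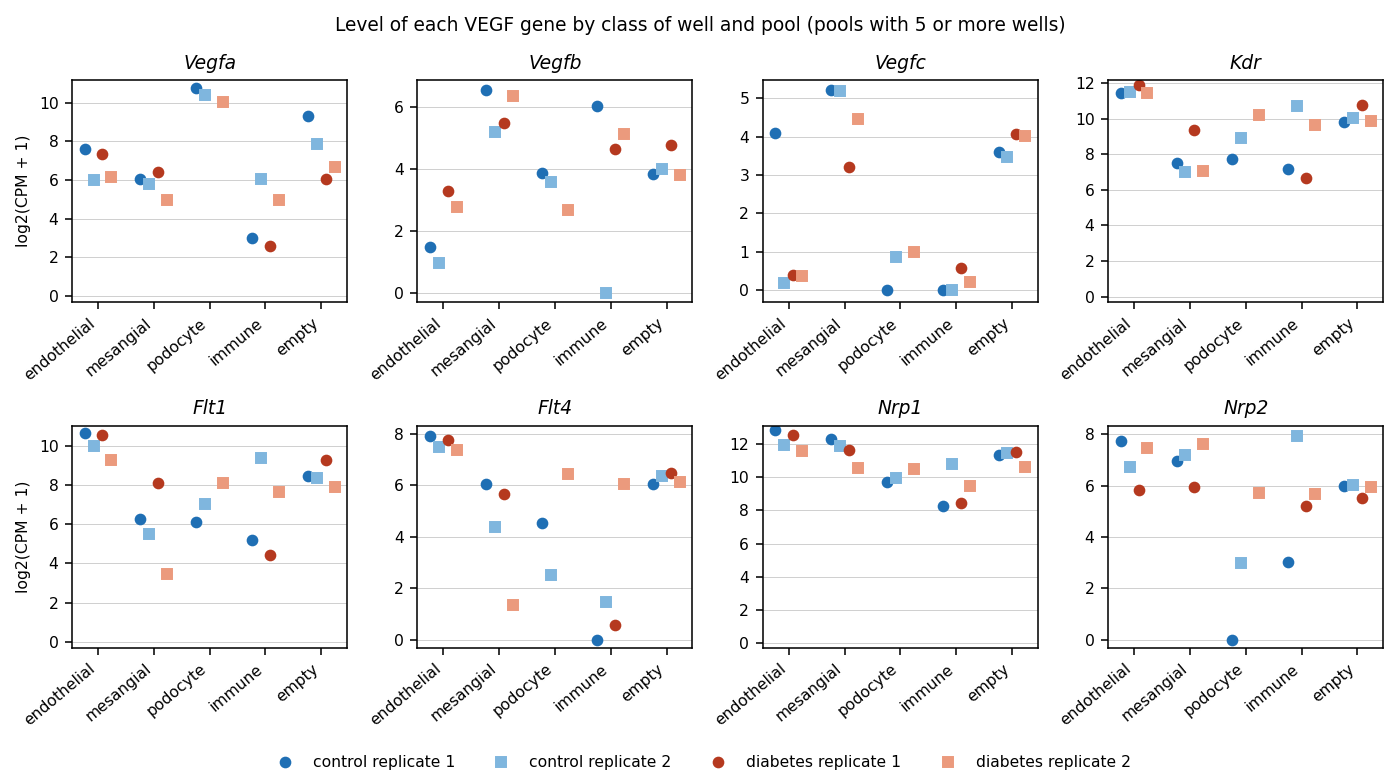
Level of each of the 8 genes, as log2(CPM + 1) of the summed reads, in endothelial-like, mesangial-like, podocyte-like and immune-like wells, with wells imaged empty for comparison. Each point is 1 pool and classes with under 5 wells in a pool are left out. Smooth muscle or renin cell-like and unnamed wells are not drawn. Of the classes drawn, Vegfa is highest in the podocyte-like class and Kdr, Flt1 and Flt4 in the endothelial-like class, whereas Nrp1 is high in endothelial-like and mesangial-like wells alike.

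Reads of Vegfa outside the podocyte-like class were set against those of the wells imaged empty. Such wells can hold free RNA or a cell missed in imaging, and which of these they held was not settled: their median number of genes was 624 and 3857 in the control pools and 831 and 3216 in the diabetes pools. The 588 empty wells gave 621 and 235 CPM of Vegfa in the control pools and 65.9 and 102 CPM in the diabetes pools. With each well thinned to 10000 reads, a Vegfa read was found in 23 of 23, 29 of 30 and 17 of 19 podocyte-like wells of control pools 1 and 2 and diabetes pool 2, or 100% (95% exact binomial interval 85.2 to 100%), 96.7% (82.8 to 99.9%) and 89.5% (66.9 to 98.7%). The share in thinned endothelial-like wells was 35, 23.3, 28.4 and 27.4%, below that in empty wells of the same pools (70.6, 41.9, 35.7 and 35.9%), where the shares of the first experiment rest on 17 and 14 wells. By CPM, endothelial-like wells were below the empty wells in 3 pools and above them in diabetes pool 1. Empty wells were shallower, with a median of 2212 to 33610 reads before thinning, and those with fewer than 10000 reads were left out. Intervals cover counting error only, since reads without molecular identifiers are not separate molecules.

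The ratio of Vegfa to podocyte markers was also compared between classes and empty wells. For each 100 reads of 14 podocyte markers, podocyte-like wells held 5.31, 3.86 and 4.59 Vegfa reads in control pools 1 and 2 and diabetes pool 2. Empty wells held 7.20, 3.39, 5.45 and 3.56 in the 4 pools. Endothelial-like wells held 10.8 and 5.09 in the control pools and 11.4 and 6.58 in the diabetes pools. In endothelial-like wells the ratio was thus above that of the podocyte-like wells in each of the 3 pools that have both, and above that of the empty wells in all 4. A limit is that Podxl is among the 14 markers and had a mean of 1072 CPM in endothelial-like wells. All 14 summed there to 1797 and 1241 CPM in the control pools and 1393 and 1059 CPM in the diabetes pools. The ratio in endothelial-like wells was thus mostly a ratio to Podxl, unlike that in podocyte-like wells. Whether endothelial cells made a part of the Vegfa reads was not tested.

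**Figure D2:**
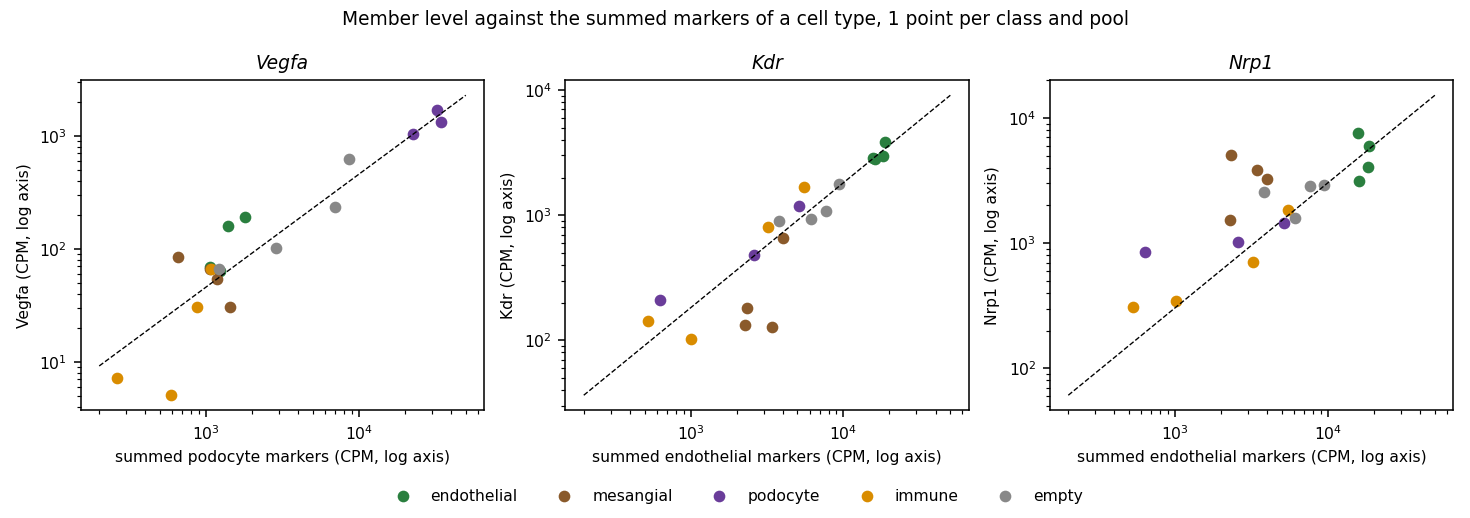
Level of Vegfa against the summed podocyte markers, and of Kdr and Nrp1 against the summed endothelial markers, in CPM on log axes. Each point is 1 pool of the endothelial-like, mesangial-like, podocyte-like or immune-like class, or of the wells imaged empty, in grey. The dashed line is the mean ratio of podocyte-like wells (Vegfa) or endothelial-like wells (Kdr, Nrp1), and the mesangial-like points lie above it for Nrp1 in all 4 pools.

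The share of podocyte-like wells and the Vegfa level over all kept wells both differed between the pools. Podocyte-like wells were 20 and 14.8% of kept wells in the control pools and 0.781 and 10.1% in the diabetes pools, and they gave 83.7 and 80.1% of the kept wells' Vegfa reads in control and 4.02 and 57.5% in diabetes. Over all kept wells Vegfa stood at 538 and 252 CPM in control and 99.9 and 143 CPM in diabetes, so both diabetes pools lay below both control pools. The share of all genes that fall apart in this way over all kept wells was not computed. Vegfc was also lower there, at 13.6 and 11.1 CPM in control and 2.16 and 3.58 CPM in diabetes. Kdr was higher, at 1400 and 1569 CPM in control and 2085 and 1781 CPM in diabetes. Within podocyte-like wells of the second experiment, the pair that can be compared, the Vegfa difference was -0.35 on the log2(CPM + 1) scale. The part of the share of podocyte-like wells in the summed Vegfa level was not tested. Capture of podocytes and their number in the glomeruli cannot be told apart in well counts.

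Vegfb (minus strand of chromosome 19, 6982473 to 6987651), a ligand of Flt1, had few reads and its highest mean in mesangial-like wells. There it stood at 91.7 and 35.4 CPM in control and 43.7 and 81.0 CPM in diabetes, and 1 well held 92.8% of the reads of control pool 1. The conditions overlapped. Endothelial-like wells had 1.78 and 0.921 CPM in control and 8.69 and 5.80 CPM in diabetes, so both diabetes pools lay above both control pools, yet all 4 were below the 12.8 to 26.1 CPM of empty wells. Immune-like wells had 64.1, 0, 24.2 and 34.1 CPM, and podocyte-like wells had 13.6 and 10.9 CPM in control and 5.33 CPM in diabetes pool 2. On the log2 scale the mesangial-like mean of 5.89 ± 0.66 was 1.94 above that of the immune-like class (3.95 ± 2.70), within the spread of the latter, followed by podocyte-like at 3.37 ± 0.63 (n = 3) and endothelial-like at 2.11 ± 1.09.

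Vegfc (plus strand of chromosome 8, 54077606 to 54187096), the ligand of Flt4, was likewise sparse. Mesangial-like wells had 35.9 and 35.4 CPM in control and 8.19 and 21.1 CPM in diabetes, where 1 well held every read of diabetes pool 1. Both diabetes pools were below both control pools. Endothelial-like wells had 16 CPM in control pool 1 and 0.144 to 0.310 CPM in the others, and immune-like wells at most 0.505 CPM. Empty wells had 10.1 to 15.9 CPM, so the mesangial-like level in diabetes pool 1 was under its pool's empty wells. The mesangial-like mean of 4.51 ± 0.94 was 3.25 above the endothelial-like mean of 1.26 ± 1.89, and the remaining classes, at 0.62 ± 0.54 (podocyte-like, n = 3) and 0.20 ± 0.28 (immune-like), did not differ from the endothelial-like class beyond its spread.

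Kdr (minus strand of chromosome 5, 75932827 to 75978458) had its highest mean in the endothelial-like wells, at nearly the same level in all pools. It stood at 2838.5 and 2958 CPM in control and 3857 and 2830 CPM in diabetes. Diabetes pool 1 was the highest and the conditions overlapped. Mesangial-like wells had 181 and 128 CPM in control and 652 and 134 CPM in diabetes, with 83.2% of the reads of diabetes pool 1 in 1 well. Podocyte-like wells had 211, 478 and 1176 CPM in control pools 1 and 2 and diabetes pool 2. Immune-like wells had 142, 1676, 102 and 809 CPM. Smooth muscle or renin cell-like wells, 6 in each control pool, had 2953 CPM (623 reads) in control pool 1 and 863 CPM in control pool 2. In control pool 1 that was above the endothelial-like level. Endothelial markers in these wells summed to 8364 and 4394 CPM in control pools 1 and 2, against 15682 and 18269 CPM in endothelial-like wells. Their part in the Kdr level was not tested. The smooth muscle or renin cell-like class had too few wells in the diabetes pools to enter the means. The means were 11.60 ± 0.21 for endothelial-like, 8.94 ± 1.24 for podocyte-like (n = 3), 8.56 ± 1.94 for immune-like and 7.74 ± 1.10 for mesangial-like wells. Among these classes the first gap of 2.65 exceeded the spreads, and the 3 others did not differ beyond theirs.

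Kdr reads in mesangial-like wells were under those of the empty wells by both CPM and share. Empty wells had 904 and 1072 CPM in control and 1766 and 927 CPM in diabetes, above the mesangial-like level in every pool. After thinning, 25 to 41.8% of mesangial-like wells in the 4 pools held a Kdr read, against 47.1 to 92.4% of empty wells and 95 to 98.9% of endothelial-like wells. In podocyte-like wells the share was 26.1, 53.3 and 63.2% in control pools 1 and 2 and diabetes pool 2, under the empty wells of each pool. By CPM they were below the empty wells in both control pools and above them in diabetes pool 2. Kdr there moved with the endothelial markers, whose summed level there was 632, 2587 and 5145 CPM in control pools 1 and 2 and diabetes pool 2. For each 100 reads of the 14 endothelial markers these wells held 33.4, 18.5 and 22.9 Kdr reads, against 18.1, 16.2 and 17.7 in the endothelial-like wells of the same pools.

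Flt1 (minus strand of chromosome 5, 147561604 to 147726011), the high-affinity and partly decoy receptor, followed Kdr over the classes but varied more between pools. Endothelial-like wells had 1612 and 1026 CPM in control and 1511.5 and 614 CPM in diabetes. The first experiment was higher than the second in both conditions, and the conditions overlapped. Mesangial-like wells had 76.5, 44.6, 270 and 10.2 CPM, podocyte-like wells 68.7 and 129.5 CPM in control and 273.5 CPM in diabetes pool 2, and immune-like wells 35.6, 668, 20.2 and 198 CPM. The order was endothelial-like at 10.12 ± 0.64, podocyte-like at 7.08 ± 0.99 (n = 3), immune-like at 6.66 ± 2.28 and mesangial-like at 5.84 ± 1.91, and only the first gap, 3.04, exceeded the spread. Smooth muscle or renin cell-like wells, left out of this order, had 1683 and 355 CPM in control pools 1 and 2. In control pool 1 that was above the endothelial-like level. Endothelial markers in these wells, given above, were likewise higher in control pool 1, and their part in the Flt1 level was not tested. Empty wells had 355 and 334 CPM in control and 616 and 240 CPM in diabetes, above the mesangial-like level in every pool. A Flt1 read was found in 97.5, 83.7, 91 and 75.8% of thinned endothelial-like wells, and in 17.6, 75.2, 71.4 and 65.2% of empty wells. Counts per gene do not separate the membrane form of Flt1 from its soluble form.

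Most thinned endothelial-like wells held both Kdr and Flt1. Kdr alone was read in 95 to 98.9% of these wells over the pools, so the joint share is nearly set by the Flt1 share, 75.8 to 97.5%. It therefore cannot show whether the pair goes together from well to well. After thinning, both were read in 38 of 40 (95%, exact interval 83.1 to 99.4%) and 70 of 86 (81.4%, 71.6 to 89.0%) endothelial-like wells of the control pools. In the diabetes pools the counts were 61 of 67 (91.0%, 81.5 to 96.6%) and 71 of 95 (74.7%, 64.8 to 83.1%). Wells with neither gene numbered 1, 2, 2 and 0, and the last count allows a share of up to 3.81% by the same interval. The median thinned endothelial-like well held 29 and 26.5 Kdr reads in control and 39 and 26 in diabetes per 10000 reads. For Flt1 the medians were 15, 5.50, 14 and 3.00, so the first experiment was again the higher in both conditions.

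**Figure D3:**
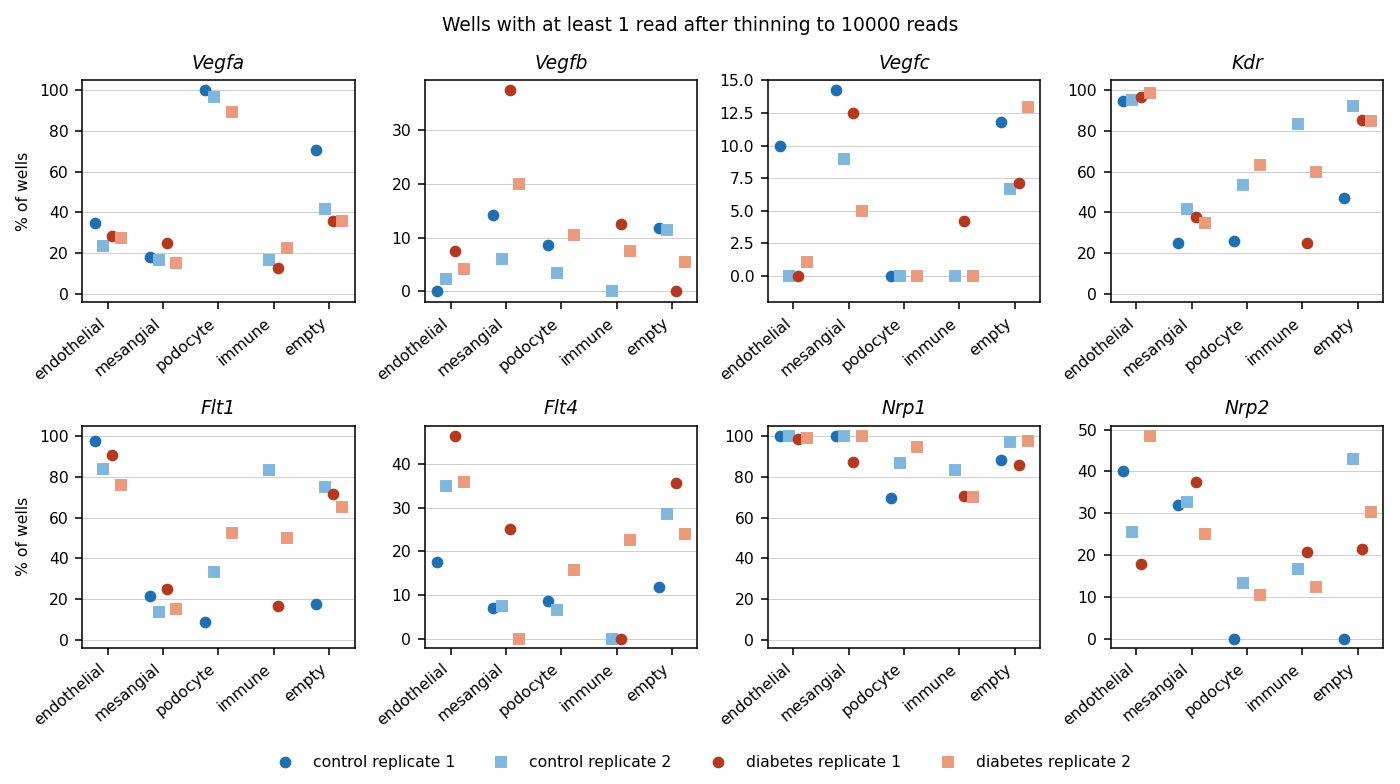
Share of wells, in %, with at least 1 read of a gene after thinning each well to 10000 reads, with an axis of its own for each gene. Each point is 1 pool, with at least 5 such wells, of the endothelial-like, mesangial-like, podocyte-like or immune-like class or of the wells imaged empty. Kdr is read in 95 to 98.9% of endothelial-like wells, and most empty wells also hold Nrp1 reads (85.7 to 97.8%).

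Flt4 (plus strand of chromosome 11, 49609263 to 49652739) was highest in the endothelial-like class, where lymphatic markers were near 0. It stood at 237 and 178 CPM in control and 213 and 161 CPM in diabetes. The 2 conditions overlapped, and 1 well held 44.9% of the reads in control pool 1. Mesangial-like wells had 64.2, 20, 49.1 and 1.57 CPM, immune-like wells 0, 1.80, 0.505 and 65.1 CPM, and podocyte-like wells 22.4 and 4.78 CPM in control and 85.0 CPM in diabetes pool 2. Empty wells had 64.2 to 86.9 CPM. A Flt4 read was found in 17.5, 34.9, 46.3 and 35.8% of thinned endothelial-like wells and in 11.8, 28.6, 35.7 and 23.9% of empty wells. The share was thus higher in endothelial-like wells in each pool, with exact intervals that overlap in every one. The endothelial-like mean of 7.62 ± 0.25 was 3.11 above the podocyte-like mean of 4.50 ± 1.95 (n = 3), and podocyte-like, mesangial-like (4.36 ± 2.12) and immune-like (2.03 ± 2.75) wells did not differ beyond their spreads. Kdr, Flt1, Nrp1 and Flt4 were all read in 17.5 and 32.6% of thinned endothelial-like wells of the control pools and in 46.3 and 29.5% of those of the diabetes pools.

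Nrp1 (plus strand of chromosome 8, 128358604 to 128503363), the co-receptor of Kdr, was the one receptor with a high level in 2 main classes. Endothelial-like wells had 7530 and 4025 CPM in control and 5990.0 and 3116 CPM in diabetes. Mesangial-like wells had 5049 and 3871 CPM in control and 3228 and 1524 CPM in diabetes. In the mesangial-like class both diabetes pools were below both control pools, whereas in the endothelial-like class diabetes pool 1 lay between the control pools. Empty wells had 2585, 2838, 2929 and 1577 CPM, so the mesangial-like level was above the empty wells in 3 pools and just below in diabetes pool 2. Podocyte-like wells had 857, 1016 and 1440.0 CPM in control pools 1 and 2 and diabetes pool 2, and immune-like wells 306, 1831, 346 and 708 CPM. The means were 12.25 ± 0.57 (endothelial-like), 11.61 ± 0.74 (mesangial-like), 10.08 ± 0.38 (podocyte-like, n = 3) and 9.25 ± 1.18 (immune-like). The endothelial-like class was the highest in each of the 4 pools, but the gap of 0.64 to the mesangial-like class was within 1 SD of the latter. The next gap, to podocyte-like wells, exceeded both spreads, and the last did not. Smooth muscle or renin cell-like wells, 6 in each control pool and 3 in each diabetes pool, had 5960 and 3291 CPM in control and 754 and 1026 CPM in diabetes.

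In mesangial-like wells Nrp1 was high relative to the endothelial markers there. For each 100 endothelial marker reads, mesangial-like wells held 216 and 113 Nrp1 reads in control and 80.7 and 67.2 in diabetes, against 48.0, 22, 32.2 and 19.5 in endothelial-like wells. Every pool had the higher ratio in the mesangial-like wells. The ratio was also above that of endothelial-like wells in podocyte-like wells (136, 39.3 and 28 in control pools 1 and 2 and diabetes pool 2) and immune-like wells (58.1, 33.4, 34.4 and 22). Empty wells held 68.1, 37.1, 31.3 and 25.8, above the endothelial-like wells in 3 pools and just below in diabetes pool 1. A read of Nrp1 was found in 100, 100, 87.5 and 100% of thinned mesangial-like wells (28, 67, 8 and 20 wells). In empty wells the share was 88.2, 97.1, 85.7 and 97.8%, so detection alone hardly separates them. The median thinned mesangial-like well held 47 and 34 Nrp1 reads in control and 37 and 17 in diabetes.

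Nrp2 (plus strand of chromosome 1, 62703285 to 62818695), the co-receptor known for VEGF-C and semaphorin binding, was low. Mesangial-like wells had 125 and 146 CPM in control and 61.4 and 195 CPM in diabetes. Endothelial-like wells had 214 and 103 CPM in control and 55.3 and 174 CPM in diabetes. In both classes diabetes pool 1 was the lowest and the conditions overlapped. Their means, 6.94 ± 0.70 and 6.93 ± 0.86, differed by 0.01. The mesangial-like class was the highest in both diabetes pools, the endothelial-like class in control pool 1 and the immune-like class in control pool 2. Immune-like wells had 7.12, 241, 35.9 and 50.0 CPM, with 99.6% of the reads of control pool 2 in 1 well, and podocyte-like wells had at most 52.0 CPM. An antisense gene and a transcript marked as needing experimental support overlap Nrp2, and Mir1903 overlaps Nrp1, so reads of these could not be separated from the hosts without strand information.

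By this measure, among classes with at least 5 wells in 3 pools, 4 of the 8 genes (Kdr, Flt1, Flt4 and Nrp1) had their highest mean in endothelial-like wells. The highest mean was in mesangial-like wells for 3 (Vegfb, Vegfc and Nrp2) and in podocyte-like wells for Vegfa. Nrp2 had its highest mean in endothelial-like wells under several other settings, and Vegfb in fibroblast-like wells when classes were set by marker score. Classes were built from these same cells, so the class differences are a description and carry no test.

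The endothelial-like class consisted of 3 clusters, and the receptors differed among them. Cluster 4 (69 wells, with Kdr, Sgk1 and Plpp3 among its leading genes) had 11525, 4305, 7420 and 4183 CPM of Nrp1 in control pools 1 and 2 and diabetes pools 1 and 2. Cluster 6 (110 wells, led by Ly6c1, Ly6a, Gpihbp1 and Fabp4, the last pair known from capillaries that take up lipid) had 4878, 3498.5, 5217 and 2896 CPM. Cluster 0 (123 wells) had 6864, 4384, 5738 and 3087 CPM, above cluster 6 in every pool. For Kdr, cluster 4 had 4098, 3058, 4842 and 2884 CPM and cluster 6 had 2109.5, 2739, 3471 and 2720 CPM. Cluster 4 was the higher in each pool, by little in the second experiment. Flt1 was highest in cluster 4 in 3 pools, at 1955, 2123 and 1021 CPM in control pool 1 and diabetes pools 1 and 2, and lowest there in control pool 2, at 769 CPM.

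Other genes ran along with these patterns over 17 sums (each a class in a pool with at least 5 wells, sharing libraries and depth within a pool). Among 9636 genes with a mean of at least 10 CPM, Vegfa was most like Npnt (Pearson r = 0.93), a protein of the glomerular basement membrane, Podxl (0.93), the sialoprotein of the podocyte surface, and Card10 (0.90). Kdr was most like Gimap6 (0.98), Cyp4b1 (0.97) and the endothelial sialomucin Emcn (0.96). Flt1 shared Gimap6 (0.95) and Cyp4b1 (0.93) and added Rasgrp3 (0.94), an exchange factor for Ras family proteins. Nrp1 was most like Pitpnc1 (0.93), Tcim (0.93) and the spectrin chain Sptbn1 (0.92), and Flt4 most like Dock9 (0.90), Gadd45gip1 (0.88) and Rtp3 (0.87). For Vegfb the most like genes were Cd302 (0.85), Pla2g4a (0.84) and Cerk (0.82), for Vegfc they included Hcar1 (0.96) and Mannr (0.85), and for Nrp2 they were Ccnd1 (0.84), Wipf1 (0.83) and Marcksl1 (0.83). Between the receptors, r was 0.97 for Kdr with Flt1, 0.68 for Kdr with Flt4 and 0.60 for Kdr with Nrp1, while Vegfb had -0.79 with Kdr and -0.80 with Flt1. These values describe 5 classes in 4 pools and rest on the differences between classes.

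The comparison of diabetes with control asked whether the VEGF genes differed within a class. In endothelial-like wells none of the genes passed the test, and the receptors' differences were small: edgeR's quasi-likelihood test with the experiment as a block gave log2 fold changes of 0.22 (SE 0.23) for Kdr, -0.38 (SE 0.27) for Flt1, -0.11 (SE 0.35) for Flt4 and -0.32 (SE 0.19) for Nrp1. Unadjusted p-values by edgeR were 0.361, 0.204, 0.759 and 0.151, and the adjusted p was 1.00 for each of the 7 genes tested. Nrp2 had -0.55 (SE 0.73), Vegfa -0.04 (SE 0.42) and Vegfb 2.50 (SE 1.98), at 1.78, 0.921, 8.69 and 5.80 CPM. Vegfc did not pass the filter on low counts, so 7 of 8 genes were tested and 0 were called. Over all genes the test called 0 of 12647 (0%), 3.86% had an unadjusted p under 0.05 (none of the 7), and DESeq2 called 80 (0.633%), none of them among the 7. Xist, with a log2 fold change of -10.24, had an adjusted p of 0.0869 in edgeR, so a difference of that size did not pass in 4 pools either.

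The sides on which pools fell add little to that. Vegfb was the one gene of the 8 with both diabetes pools above both control pools in endothelial-like wells, as were 16.4% of all genes tested there, and none of the 8 had both below, as 14.3% did. Within experiments, on the log2(CPM + 1) scale, Nrp1 differed by -0.33 and -0.37, Flt4 by -0.15 and -0.14, and Flt1 by -0.09 and -0.74 in experiments 1 and 2, all with diabetes lower. Kdr differed by 0.44 and -0.06 and Nrp2 by -1.93 and 0.75, in opposite directions. Erythroid marker reads stood at 13418 CPM in the endothelial-like wells of diabetes pool 1, and their part in these values was not tested.

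**Figure D4:**
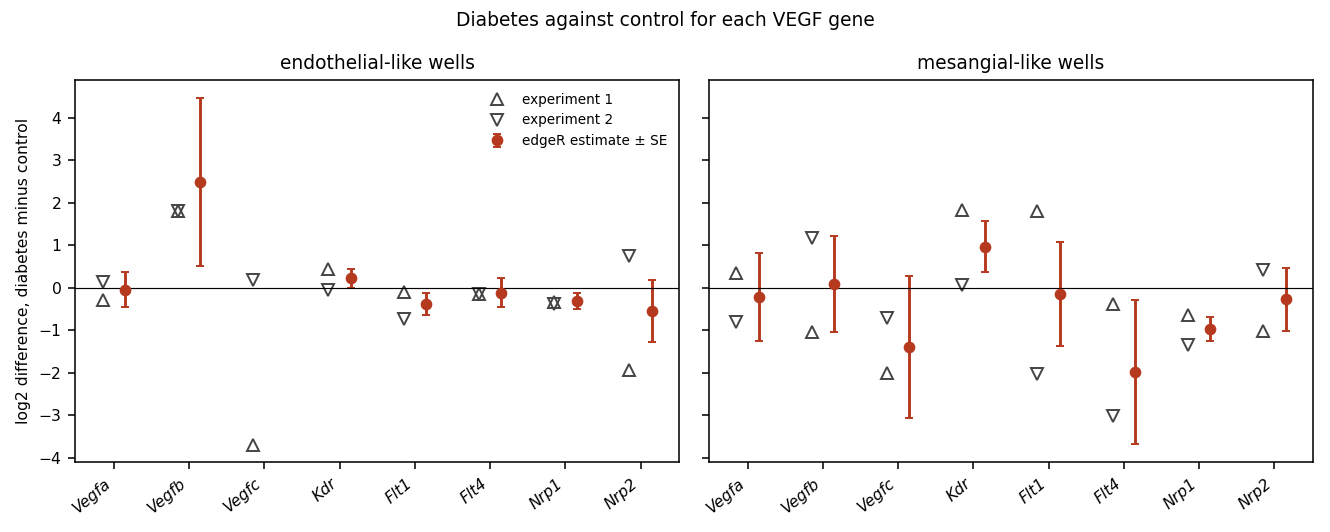
Difference of diabetes minus control on the log2 scale for each gene in endothelial-like and mesangial-like wells. Open triangles are the differences of log2(CPM + 1) within experiments 1 and 2, and filled points are edgeR estimates with their SE (none for Vegfc in endothelial-like wells, which was not tested). Nrp1 lies below 0 in both experiments in both classes, with estimates of -0.32 and -0.97.

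In mesangial-like wells Nrp1 had the smallest p of the 8 genes. The log2 fold change by edgeR was -0.97 (SE 0.29, unadjusted p = 0.0102), and the adjusted p over all genes was 1.00. DESeq2 gave -0.92 (SE 0.42) with an adjusted p of 0.427. Experiments 1 and 2 gave -0.65 and -1.34 on the log2(CPM + 1) scale, and both diabetes pools were lower. This held for 2 of the 8 genes, Nrp1 and Vegfc, and for 19.1% of all genes tested in this class, while both were higher for none of the 8 and for 13.7% of all. All 8 genes were tested and 0 were called, beside 0 of 10599 genes overall (0%) by edgeR and 79 (0.745%) by DESeq2. An unadjusted p under 0.05 was found for 1 of the 8, Nrp1, and for 3.76% of all genes. Mesangial markers were also lower in both diabetes pools: their summed level was 18665 and 14902 CPM in control and 6223 and 10932.5 CPM in diabetes mesangial-like wells. They were lowest in diabetes pool 1, whereas Nrp1 was lowest in diabetes pool 2. Fibroblast markers summed to 5685 CPM in diabetes pool 1 against 403 to 2113 CPM in the other pools, and the part of either in the Nrp1 difference was not tested. Per 100 mesangial marker reads, Nrp1 had 27.1 and 26 reads in control and 51.9 and 13.9 in diabetes, where the conditions overlap.

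The other genes of the mesangial-like class had wider errors. Vegfc had -1.39 (SE 1.67), with both diabetes pools lower, Flt4 -1.98 (SE 1.69), Kdr 0.97 (SE 0.60), Nrp2 -0.27 (SE 0.74), Vegfa -0.22 (SE 1.03), Flt1 -0.14 (SE 1.22) and Vegfb 0.10 (SE 1.13), with an edgeR adjusted p of 1.00 for each. The difference between the classes was tested too, in 1 fit over both. The diabetes effect on Nrp1 was 0.70 lower on the log2 scale in mesangial-like than in endothelial-like wells (difference -0.70, SE 0.42), with an edgeR p of 0.112 and an adjusted p of 1.00, and 0 of 13070 genes were called (0%). A difference between the classes is therefore not shown.

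Immune-like wells allow less, with 5 and 6 wells in the control pools. For the median gene here, edgeR took the spread between pools wholly from all genes together. The mean well of this class held 24387 CPM of immune and 9943 CPM of erythroid markers. At Leiden resolution 1.2, 49 wells were immune-like, 4 and 3 in control and 24 and 18 in diabetes. A separate unnamed cluster of 31 wells, 23 of them from diabetes pool 2, had Igha and Igkc among its leading genes. Its mean well held 2663 CPM of immune and 25321.5 CPM of erythroid markers. In this class 6 genes were tested and 0 were called, beside 4 of 8516 genes (0.0470%) by edgeR and 7 (0.0822%) by DESeq2, none of them among the 6. An unadjusted p under 0.05 was found for none of the 6 and for 3.86% of all genes. Their log2 fold changes were -0.74 (SE 2.69) for Vegfa, 2.39 (SE 4.16) for Vegfb, -0.65 (SE 0.84) for Kdr, -1.19 (SE 1.31) for Flt1, -0.48 (SE 0.84) for Nrp1, and -0.15 (SE 2.89) for Nrp2, with an edgeR adjusted p of 1.00 for each. The median over all genes in this class was 0.91 (0.66 with RLE scaling), so 5 of these lay below it. Both diabetes pools were above both controls for Vegfc alone, which was not tested, and for 30.6% of genes tested, and both were below for none of the 8 and for 7.80% of genes tested. Endothelial markers in these wells summed to 527 and 5483 CPM in control and 1006 and 3216.5 CPM in diabetes, and Kdr, Flt1 and Nrp1 were likewise highest in control pool 2.

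Podocyte-like wells could not be tested in 4 pools. A fit without diabetes pool 1, in which the single diabetes pool is assumed to vary like the controls, gave -0.44 (SE 0.71) for Vegfa with an edgeR adjusted p of 0.959. It gave 1.81 (SE 0.74) for Kdr with an unadjusted p of 0.0139 and an adjusted p of 0.475, beside 30 of 11390 genes called (0.263%). The endothelial markers in these wells, given above, were highest in the same diabetes pool.

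The wider pathway was described by 6 lists. No listed gene was called by edgeR in endothelial-like, mesangial-like or immune-like wells. The lists were not set against the DESeq2 calls or the podocyte-like fit. Of 2 other ligands of the receptors, Vegfd stood at 38.4 and 344.5 CPM in control and 68.2 and 796 CPM in diabetes mesangial-like wells, more in the second experiment than the first. Its log2 fold change there was 1.04 (SE 0.48) with an unadjusted edgeR p of 0.0630. Pgf, the placental growth factor, had 40.6, 38.7, 64.1 and 19 CPM in the same wells. In endothelial-like wells both were scarce, at 0, 5.16, 2.79 and 28.3 CPM for Vegfd and at most 4.79 CPM for Pgf.

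Of 43 genes of receptor signalling, 38 were tested in endothelial-like wells, with 16 positive and 22 negative differences and a median of -0.03, against 0.05 over all genes. The smallest unadjusted edgeR p was that of Prkca (0.0487), a protein kinase C isoform, at 161 and 62.7 CPM in control and 78.1 and 22.7 CPM in diabetes, with a log2 fold change of -1.22 (SE 0.50). Hspb1, a small heat shock protein phosphorylated downstream of Kdr, had 96.0 and 275 CPM in control and 222 and 307 CPM in diabetes (0.71, SE 0.40). Ptprb, the phosphatase that restrains Kdr, stood at 1888 and 2154 CPM in control and 1926 and 1554 CPM in diabetes, so the conditions overlapped.

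Of 24 genes known to be induced by VEGF in endothelium, 21 were tested there, 12 positive and 9 negative, with a median of 0.06. Adamts1, a secreted protease, had the smallest unadjusted edgeR p (0.0234), at 100 and 94.9 CPM in control and 243 and 183 CPM in diabetes, with both diabetes pools above both controls (1.14, SE 0.39). Icam1, a leukocyte adhesion molecule, had 153 and 833 CPM in control and 379 and 965 CPM in diabetes (0.79, SE 0.35). Esm1, an endothelial proteoglycan, had 98 and 53.6 CPM in control and 75.6 and 37.3 CPM in diabetes, with overlap.

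Of 19 genes of the hypoxia-inducible factors, their regulators and targets, 16 were tested in endothelial-like wells, 8 in each direction, with a median of 0.10. Adm, the vasodilator adrenomedullin, had 0 and 1.66 CPM in control and 0.931 and 34.2 CPM in diabetes (4.54, SE 2.15). Egln1, an oxygen sensor that marks these factors for removal, had 35.5 and 23.6 CPM in control and 68.4 and 61.7 CPM in diabetes (1.2, SE 0.65). Both had an unadjusted edgeR p above 0.05, at 0.0770 and 0.110. Epas1, the hypoxia-inducible factor of endothelium, had 1554 and 1384 CPM in control and 1729 and 1780.0 CPM in diabetes endothelial-like wells.

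Semaphorins and plexins, which share the neuropilins with VEGF, included ligands at their highest level in podocyte-like wells. Sema3g stood at 1950 and 4367 CPM in control and 2342 CPM in diabetes pool 2 in podocyte-like wells, against 149 to 207 CPM in endothelial-like wells. Sema3e had 366 and 201.5 CPM in control and 132 CPM in diabetes pool 2 in podocyte-like wells. Of 12 genes, 9 were tested in endothelial-like wells, 3 positive and 6 negative, with a median of -0.07. Plxna2, a plexin that signals with the neuropilins, had 43.4 and 105.2 CPM in control and 287 and 160 CPM in diabetes (1.68, SE 0.60, unadjusted edgeR p = 0.0300), both diabetes pools above both controls, and Sema3d had at most 14.8 CPM. Of 12 extracellular proteins that bind, release or oppose VEGF, 7 were tested, 4 positive and 3 negative, with a median of 0.18. Thbs2, a thrombospondin, had 96.2 and 7.90 CPM in control and 12.4 and 2.12 CPM in diabetes (-2.39, SE 0.97, unadjusted edgeR p = 0.0471), and Thbs1 at most 16.2 CPM. In mesangial-like wells the medians of the lists were 0.44 for the other ligands, -0.13 for receptor signalling, -0.35 for the VEGF-induced genes, -0.08 for the hypoxia list, -0.96 for the semaphorins and plexins and 0.92 for the extracellular proteins, against -0.10 over all genes.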

How the data were processed

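Of the 1600 deposited wells of a microfluidic plate, 833 were imaged with 1 cell and 588 were imaged empty. The remaining wells were not used. The deposited tables hold expected counts per gene and well, of which 74.15% of the values above 0 in experiment 1 and 79.31% in experiment 2 were whole. The build mm10 and the tools featureCounts 1.5.1, STAR 2.4.2a, cutadapt 1.11 and BWA 0.7.17-r1188 are named per the submitters' processing notes, with no role or order. No source at hand states the strand setting or why values are fractional. No pair of wells held identical values. Gene names and positions came from GENCODE M21 on GRCm38 (45229 of 45792 identifiers matched).

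Wells imaged with 1 cell, at least 500 genes and at most 30% mitochondrial reads were kept. They were clustered in scanpy 1.11.5 (2000 variable genes without the 8, 15 components, 15 neighbours, Leiden resolution 0.8) and named from fixed markers. Counts were summed per class and pool, giving CPM and log2(CPM + 1). For tests the sums were rounded and fitted over all genes with edgeR 4.0.16 (quasi-likelihood, TMM, filterByExpr) with the experiment as block, and Benjamini-Hochberg adjusted at 0.05. The experiment number pairs the pools, since each experiment held a pool of both conditions. A class needed 5 wells in a pool. Total reads of kept wells ran from 4763756 to 48389746 a pool. The procedure was tested on simulated counts. The alternatives were DESeq2 1.42.0, RLE scaling, no block, no filters, thinning to 10000 reads, other clusterings, empty-well subtraction and leaving out a pool. All 8 genes were named in every class, together with the 3 genes most correlated with each (1 of those for Vegfc is not reported here) and, from each pathway list, the 2 with the smallest p in endothelial-like wells. Further pathway genes (Vegfd and Pgf in mesangial-like wells, Ptprb, Esm1, Epas1, Sema3g and Sema3e) were picked after their values were seen. The genes and lists were chosen with earlier results of these data known.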

Additional observations from a re-analysis of the deposited data

Results flagged for a closer look

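In 4 cases the diabetes minus control difference of a gene ran in opposite directions in 2 classes, in both experiments, on the log2(CPM + 1) scale. The difference between the classes was not tested in any of them. The share of all genes with such opposite directions was not computed, so whether 4 is more than random signs would give is not known. All 4 involve the immune-like class, with its 5 and 6 control wells and its erythroid marker reads given above.

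Vegfc differed by -2.01 and -0.72 in mesangial-like wells and by 0.59 and 0.21 in immune-like wells, a gap of -1.76 between the classes' means, where the immune-like levels were at most 0.505 CPM. Kdr differed by 1.84 and 0.06 in mesangial-like wells and by -0.47 and -1.05 in immune-like wells, a gap of 1.71. The Kdr case rests in experiment 2 on a mesangial-like difference of only 0.06, from 128 CPM in control to 134 CPM in diabetes.

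Flt4 differed by 0.59 and 4.56 in immune-like wells, from 0 and 1.80 CPM in control to 0.505 and 65.1 CPM in diabetes. In endothelial-like wells it differed by -0.15 and -0.14, a gap of -2.72, and in mesangial-like wells by -0.38 and -3.03, a gap of -4.28.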

How the results depend on the processing

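No VEGF gene passed the threshold in any alternative fit. The 362 alternatives counted were fold changes together with counts of genes past the threshold or highest in endothelial-like wells. Of these, 319 kept the direction of a fold change or the count, where 4 or 5 genes highest in endothelial-like wells were taken as the same. The other 43 were fold changes that turned sign. Not all alternatives were free to move. With the 8 genes allowed in the clustering, mesangial-like wells kept the same number in each pool and gave the same fits. Some counts of 0 VEGF genes came from fits that called no gene at all. The number kept is therefore no measure of how firm the results are. The smallest adjusted p was 0.0512, for Kdr in podocyte-like wells of 3 pools with no filter on wells (3.29). That 3-pool fit, the interaction of the classes and the level count with no filter on wells were added after seeing the data. Without the replicate block, 0 of the 8 genes were called in each class (0 with it), and Flt1 (1.12) and Nrp2 (0.01) in mesangial-like wells turned positive. The pairing comes from the design, and the block changed no other call among them. Nrp1 in mesangial-like wells stayed negative in 15 of 15 settings, from -1.39 to -0.55. The number of the 8 genes highest in endothelial-like wells was 4 or 5, with Nrp2 the gene that moved, and Vegfb moved from mesangial-like to fibroblast-like wells with classes by marker score.

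Signs turned as follows, and the cause was not tested. With wells thinned, Vegfa in endothelial-like wells had 0.32, and Flt1 1.01, Nrp2 0.82 and Vegfb -0.34 in mesangial-like wells. With the empty-well profile subtracted, Vegfa had 0.65 in endothelial-like and 3.66 in mesangial-like wells, Flt1 2.25 in mesangial-like wells, and Nrp1 1.87 and Nrp2 0.93 in immune-like wells. With no filter on wells, Vegfa had 0.09 in endothelial-like and 0.44 in immune-like wells. With mitochondrial reads at most 15%, Flt4 had 0.06 in endothelial-like and Vegfa 0.54 in mesangial-like wells. With classes by marker score, Flt4 had 0.10 in endothelial-like and Kdr -1.37 in mesangial-like wells. At Leiden resolution 1.2, Flt1 had 0.15 in mesangial-like wells and Vegfa 0.06 in podocyte-like wells of 3 pools. Outside the 362 counted, that 3-pool fit also turned Flt4 from 2.83 to -1.11 and Vegfb from -1.10 to 0.10 with mitochondrial reads at most 15%, and Vegfb to 0.23 with no filter on wells.

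Leaving out 1 pool at a time gave, in endothelial-like wells, -0.68 to 0.75 for Vegfa, -0.71 to 0.08 for Nrp1, -1.56 to 0.32 for Nrp2, -0.93 to 0.14 for Flt1 and -0.23 to 0.00 for Flt4. In mesangial-like wells it gave -0.82 to 0.41 for Vegfa, -0.60 to 0.82 for Vegfb, -0.05 to 2.00 for Kdr, -2.41 to 2.09 for Flt1, -4.56 to 0.18 for Flt4 and -1.24 to 0.67 for Nrp2. In immune-like wells it gave -3.20 to 2.04 for Vegfa, -0.52 to 9.47 for Vegfb, -3.52 to 2.42 for Kdr, -4.50 to 2.36 for Flt1, -1.96 to 1.43 for Nrp1 and -2.63 to 3.19 for Nrp2. Over all genes, calls ran from 0 to 80 in endothelial-like and 0 to 79 in mesangial-like wells, the highest by DESeq2. In immune-like wells they ran from 0 (4 with the block) to 387 without control pool 1 and 142 without control pool 2.

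Single wells held most reads of Vegfb in mesangial-like wells of control pool 1 and all reads of Vegfc in those of diabetes pool 1. Immune-like wells had too few wells for thinning, for the 15% mitochondrial limit, for marker scores and for the finer clustering, and podocyte-like wells for any fit of 4 pools.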
